A study of Mus musculus with 6 samples.

Results

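The endoplasmic reticulum (ER) folding and unfolded protein response genes were examined in MC3T3-E1 cells, a clonal preosteoblast line from mouse skull bone, with and without C3G (cyanidin-3-O-glucoside), an anthocyanin pigment of plants. A fixed list of 35 genes was taken, which holds chaperones, their co-chaperones, lectins, disulfide enzymes, translocon subunits, degradation factors and stress sensors. All 35 were found among the 11234 genes listed in the 6 libraries. The C57BL/6-derived cells, at passage 4, were held in serum-free medium for 24 h and then cultured for 24 h in complete medium. The 3 C3G libraries come from cells that received 100 μmol/L C3G in this medium, and the 3 control libraries from cells that received the medium without it. The cells carried no named genetic change, and all groups were of the same line. The labels number the replicates 1 to 3 in each group but do not say whether these were separate cultures, so p values measure only the spread between these libraries. Each value is in FPKM, that is, fragments per kilobase of gene model and per unit of mapped fragments, so levels are scaled for gene length and library total. Values are listed in the order of replicates 1, 2 and 3 throughout.

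Proteins that are secreted or placed in membranes enter the ER through the Sec61 channel, where chaperones bind them, lectins retain those that carry sugar chains and disulfide isomerases join their cysteines. Proteins that fail to fold are drawn back to the cytosol and degraded. When unfolded protein accumulates, the membrane sensors IRE1 (*Ern1*), ATF6 (*Atf6*) and PERK are activated, and the first 2 act largely through the factors XBP1 and cleaved ATF6, which raise transcription of folding and degradation genes. Osteoblasts export large amounts of type I collagen, so this machinery is abundant in bone-forming cells.

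The promoters of several of these genes hold a known binding element for this response, a feature that the rule for choosing the genes did not use. RefSeq promoters (GRCm38.p6, 250 bases before to 50 after a start site) were found for 28 of the 35 genes, with 32 start sites. The ER stress element, written here as CCAAT, any 9 bases and CCACG, was searched on both strands. It was present in 8 of the 28 genes, against 37 of 27025 genes with a promoter (0.137%). The related ER stress element II (ATTGG, any 1 base, CCACG) was present in *Herpud1* and *Dnajb11*, against 0.0444% of these genes, and the *Dnajb11* match lay after its start site. The unfolded protein response element TGACGTGG was present at 1 start site of *Txndc5*, against 0.714% of these genes. The stretches upstream of the RefSeq start sites are given below 5′ to 3′ on the strand that carries the element, with the fixed bases in capitals, since they show the element in the genes described next. Start sites differ between annotations, and the *Hspa5* and *Txndc5* stretches lie inside the longer gene spans of GENCODE that are given with these genes.
*Hspa5*, chr2:34772020-34772048, plus strand: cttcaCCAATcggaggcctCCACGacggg
*Hsp90b1*, chr10:86705626-86705668, minus strand: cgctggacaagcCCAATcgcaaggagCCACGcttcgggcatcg
*Hsp90b1*, chr10:86705521-86705563, plus strand: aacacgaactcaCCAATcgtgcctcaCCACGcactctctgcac
*Calr*, chr8:84847063-84847105, plus strand: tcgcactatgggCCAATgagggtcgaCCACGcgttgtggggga
*Canx*, chr11:50325788-50325830, minus strand: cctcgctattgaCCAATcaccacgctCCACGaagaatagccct
*Pdia6*, chr12:17266479-17266521, plus strand: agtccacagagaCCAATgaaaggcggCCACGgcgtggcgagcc
*Creld2*, chr15:88819508-88819550, minus strand: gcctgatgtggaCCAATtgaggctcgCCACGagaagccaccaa
*Dnajc3*, chr14:118937815-118937857, plus strand: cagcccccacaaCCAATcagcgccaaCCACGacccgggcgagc
*Syvn1*, chr19:6046520-6046562, plus strand: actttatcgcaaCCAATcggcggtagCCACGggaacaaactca
*Herpud1*, chr8:94386365-94386399, plus strand: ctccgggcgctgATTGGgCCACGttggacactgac
*Txndc5*, chr13:38528034-38528063, minus strand: ggcctcgccgcTGACGTGGcgctagccgcc
The short motifs CCAAT and CCACG, which are part of the ER stress element, were far more common by themselves. CCAAT was present in 21 of the 28 genes and in 41.1% of all genes with a promoter, and CCACG in 22 of the 28 and in 35.5%. A match describes these letters only.

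The members spanned a wide range of levels. All 35 had a mean of at least 1 FPKM, and the lowest mean was 4.71 FPKM for *Ern1*, at rank 7083 of 11234. Of the 35, 12 were among the 1000 genes of highest mean level and 3 among the highest 100. These were *P4hb* at rank 48, *Calr* at rank 70 and *Hsp90b1* at rank 77. The members took 0.952% to 1.14% of the summed FPKM of a library. The markers of the preosteoblast were present in all libraries, with *Col1a1*, the main collagen chain of bone, at 923 to 4432 FPKM and the transcription factor *Runx2* at 5.46 to 9.07 FPKM, whereas *Sp7*, a factor of committed osteoblasts, was at 0.24 to 0.86 FPKM. Of the macrophage, endothelial, adipocyte, epithelial and muscle markers, 3 of 16 were listed, and each was under 2 FPKM in all 6 libraries.

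**Figure D1:**
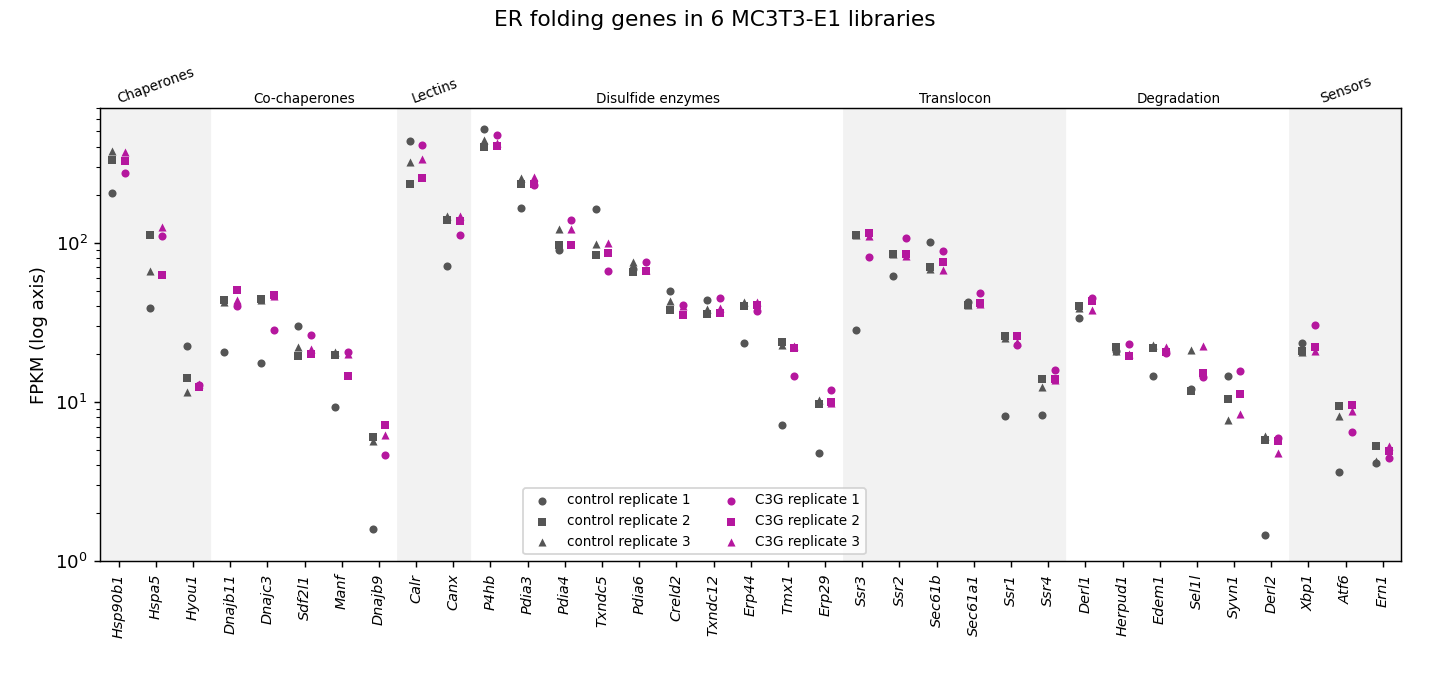
FPKM on a log axis for each of the 35 genes in the 3 control (grey) and 3 C3G (magenta) libraries, ordered by role and within a role by mean level. Most genes keep their place between libraries, and control replicate 1 (grey circles) is the lowest point for 21 of the 35.

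Control replicate 1 stood apart. It was the lowest of the 6 libraries for 21 of the 35 members and the highest for 7, and C3G replicate 1 was the highest for 11. The members' median was 23.6, 37.5 and 39.0 FPKM in the untreated libraries and 37.3, 36.2 and 39.0 FPKM in the treated ones. Over all genes the medians ranged from 5.80 FPKM in control replicate 1 to 7.40 FPKM in control replicate 3. Read depth is not given by FPKM values, so no counting error can be attached to them.

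No member passed the test for a difference between C3G and control cells. Differences are given as C3G minus control on the log2(FPKM + 1) scale, and a gene was called at an unadjusted limma p under 0.05 with a fold change of at least 1.2. With limma, 0 of the 35 members were called and 0 had an unadjusted p under 0.05, also with the replicate number as a block, where 169 genes (1.50%) were called over all genes. The smallest p was 0.163 for *Ssr4*, and the smallest adjusted p was 0.992 (Benjamini-Hochberg over 11234 genes). Over all genes, 73 (0.650%) were called, 45 higher and 28 lower with C3G, and 0 passed an adjusted threshold of 0.05. The libraries of the 2 groups overlapped in each of the 35 members, while they did not overlap in 452 genes (4.02%) overall. The exact permutation test, whose smallest possible p is 0.1 with 3 against 3, gave no member a p under 0.2.

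A higher value with C3G was more frequent than a lower one among the members, but the count rested on 1 control library. In the full comparison 28 of 35 were higher and 7 were lower, with a median difference of 0.17 against 0.06 over all genes. Without control replicate 1 the median was 0.01, 18 of 35 were higher, and 16 members changed direction. In 13 more the difference kept its direction and became smaller by over 1.5 times, and in the other 6 it did neither. Among the 13, besides those given with their genes below, were *Erp29* (0.067 without control replicate 1), *Pdia4* (0.11), *Creld2* (-0.064), *Ssr2* (0.081) and *Sel1l* (0.095). With replicates 2 and 3 of both groups only, the median was 0.01 and 20 of 35 were higher. In bulk RNA, fewer cells of a type and less RNA per cell cannot be told apart.

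**Figure D2:**
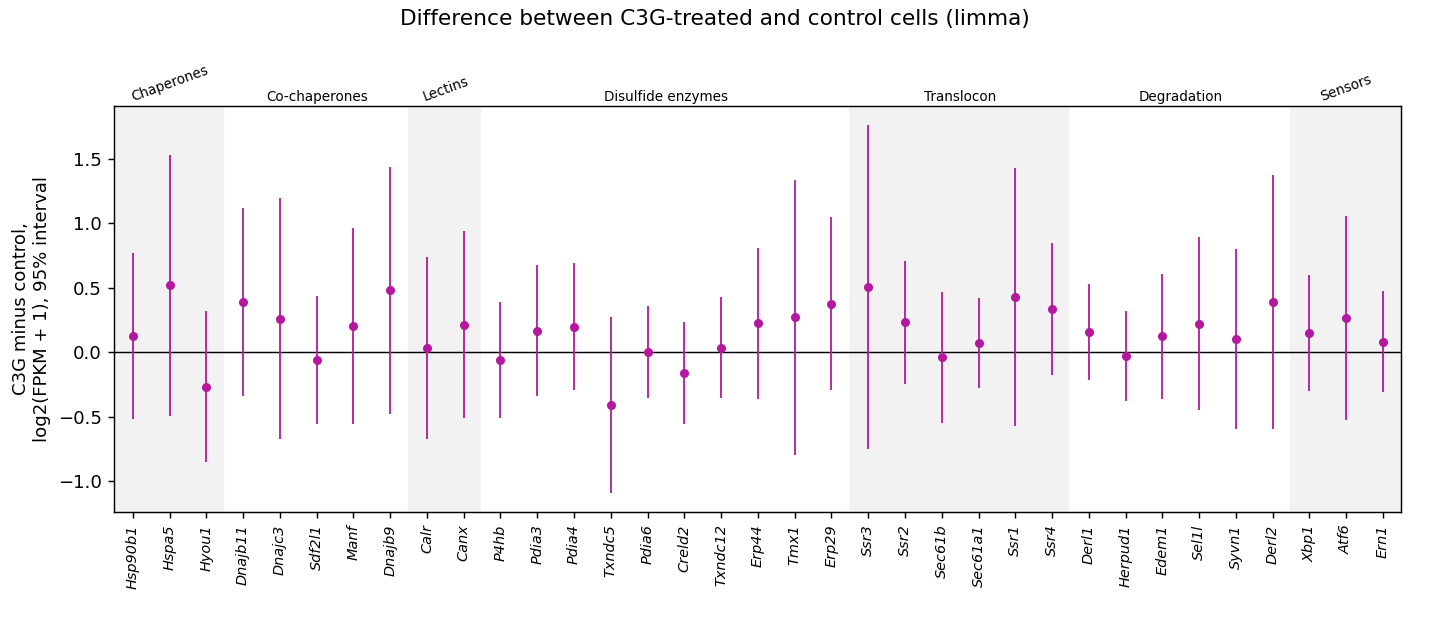
Difference between C3G-treated and control cells on the log2(FPKM + 1) scale for each gene (points), with 95% intervals from limma (bars), 3 libraries per group. Every interval includes 0, and those of *Ssr3*, *Tmx1* and *Hspa5* are the widest.

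*Hspa5* encodes BiP, the abundant Hsp70-type chaperone of the ER that binds unfolded chains and holds the stress sensors inactive. The gene lies at chr2:34771970-34777547, plus strand (GRCm38), and its ER stress element is the first sequence above. *Hspa5* measured 38.9, 111 and 66.6 FPKM in the untreated libraries and 110.1, 62.7 and 125 FPKM in the treated ones. The high libraries were control replicate 2 and C3G replicates 1 and 3, so the groups overlapped. The difference was 0.52 (SE 0.43, 95% interval -0.50 to 1.53, limma p = 0.264, exact permutation p = 0.5). Without control replicate 1 it was 0.14, and with replicates 2 and 3 only it was 0.040. *Hsp90b1*, the Hsp90-type chaperone GRP94, is at chr10:86690209-86705509, minus strand, and 2 ER stress elements lie before its RefSeq start site. It was the highest of the chaperones, at 206, 330.2 and 377 FPKM in the untreated libraries and 275, 326 and 371 FPKM in the treated ones. Control replicate 1 was again lowest, and the other libraries overlapped. The difference for *Hsp90b1* was 0.13 (SE 0.27, 95% interval -0.52 to 0.77, limma p = 0.660, exact permutation p = 0.9), and it was -0.13 without control replicate 1. *Hyou1*, an exchange factor that resets BiP, gave 22.5, 14.1 and 11.6 FPKM in the untreated libraries and 12.8, 12.3 and 12.9 FPKM in the treated ones, and its difference of -0.27 (exact permutation p = 0.5) became -0.011 without control replicate 1. Exons of *Hsp90b1* overlap those of the annotated genes *Gm15344* and *Gm25745* on the same strand. Exons of 12 members overlap another annotated gene, 3 of them on the same strand (*Hsp90b1*, *Pdia4* and *Manf*), and how the authors assigned such reads is not given in the sources used here.

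The co-chaperones direct the binding cycle of BiP. *Dnajb11*, whose protein brings BiP to newly made chains, was the highest of the 5 by level, at 20.5, 43.9 and 42.5 FPKM in the untreated libraries and 39.8, 50.2 and 43.8 FPKM in the treated ones. Its lowest library was control replicate 1, with the next lowest at 39.8 FPKM. The difference for *Dnajb11* was 0.39 (SE 0.31, 95% interval -0.34 to 1.12, limma p = 0.248, exact permutation p = 0.5), and it was 0.040 without control replicate 1. *Dnajb9* (ERdj4, a BiP partner that also restrains IRE1) showed 0.48 (exact permutation p = 0.5), with 1.59, 6.01 and 5.71 FPKM in the untreated libraries and 4.67, 7.13 and 6.20 FPKM in the treated ones. Control replicates 2 and 3 lay within the range of the C3G libraries, and without control replicate 1 the difference was 0.013. *Dnajc3* (p58IPK) showed 0.26 (exact permutation p = 0.5) and *Manf*, a protein that leaves the ER on stress, showed 0.20 (exact permutation p = 0.7). *Sdf2l1*, a partner of *Dnajb11*, was -0.062 (exact permutation p = 0.8). The 5 co-chaperones thus ranged from -0.062 to 0.48. *Dnajc3* (-0.16), *Manf* (-0.15) and *Sdf2l1* (0.11) changed direction without control replicate 1.

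The 2 lectins hold glycoproteins until they fold. *Calr*, the soluble calreticulin, at chr8:84841850-84846934, minus strand, was one of the most abundant members, at 437, 232 and 319.7 FPKM in the untreated libraries and 409, 253 and 336 FPKM in the treated ones. It was highest in control replicate 1, opposite to *Hspa5* and *Hsp90b1*. The difference was 0.034 (SE 0.30, 95% interval -0.67 to 0.74, limma p = 0.913, exact permutation p = 0.9). *Canx*, the membrane-bound calnexin, measured 71.1, 139 and 147 FPKM in the untreated libraries and 113, 137 and 148 FPKM in the treated ones. Control replicate 1 was well below the others, which overlapped, and the difference of 0.21 (exact permutation p = 0.8) became -0.12 without it.

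Disulfide enzymes formed the largest role group, with 10 genes. *P4hb*, protein disulfide isomerase and also a subunit of the collagen prolyl hydroxylase, had the highest mean level of the members, at 516, 399.6 and 444 FPKM in the untreated libraries and 474, 405 and 421 FPKM in the treated ones. The libraries of the 2 groups overlapped, and the difference was -0.061 (SE 0.19, 95% interval -0.51 to 0.39, limma p = 0.757, exact permutation p = 0.7). *Txndc5*, an isomerase with several thioredoxin-type domains, lies at chr13:38500079-38528824, minus strand. It measured 162, 83.9 and 98.5 FPKM in the untreated libraries and 66.4, 86.3 and 99.0 FPKM in the treated ones. Control replicate 1 was the highest and C3G replicate 1 the lowest of the 6, while the treated and untreated libraries of replicate 2 were close to each other, as were those of replicate 3. The difference was -0.41 (SE 0.29, 95% interval -1.10 to 0.28, limma p = 0.199, exact permutation p = 0.5), and it was -0.13 without control replicate 1. Its limma p was the smallest among the members with a lower value. Exons of *Txndc5* overlap those of *Bmp6* and *Gm31834* on the opposite strand. *Pdia3*, which works with calnexin and calreticulin, showed 0.17 (exact permutation p = 0.6), or -0.022 without control replicate 1. Of the other 7, *Erp29*, *Tmx1*, *Erp44* and *Pdia4* were higher with C3G by 0.20 to 0.38, while *Pdia6* and *Txndc12* were within 0.04 of 0 and *Creld2* was -0.16. Their exact permutation p values were 0.3 or more. *Tmx1* (-0.25) and *Erp44* (-0.039) turned lower without control replicate 1, while *Erp29* (0.067) and *Pdia4* (0.11) stayed higher.

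The translocon members carry chains into the ER. *Ssr3*, 1 of the 4 subunits of the translocon-associated complex, had the highest mean level of this group, at 28.2, 111 and 112 FPKM in the untreated libraries and 81.4, 115 and 109.8 FPKM in the treated ones. Control replicate 1 was by far the lowest and C3G replicate 1 the next, while the other 4 libraries lay close together. The difference was 0.51 (SE 0.53, 95% interval -0.75 to 1.77, limma p = 0.372, exact permutation p = 0.7), and without control replicate 1 it was -0.14. *Ssr4* had the smallest p of the members and measured 8.24, 13.9 and 12.4 FPKM in the untreated libraries and 15.8, 14.0 and 13.7 FPKM in the treated ones. Control replicate 1 was lowest and C3G replicate 1 highest, and control replicate 2 overlapped the C3G libraries. The difference for *Ssr4* was 0.34 (SE 0.21, 95% interval -0.17 to 0.85, limma p = 0.163, exact permutation p = 0.2), and it was 0.13 without control replicate 1 and 0.072 with replicates 2 and 3 only. *Ssr1* and *Ssr2* were 0.43 and 0.23, and the channel subunits *Sec61a1* and *Sec61b* were 0.071 and -0.040. In the same order they were -0.088, 0.081, 0.091 and 0.14 without control replicate 1. Of *Sec61b*, 5.86% of 75-base stretches also occur in other transcripts, so reads may be shared, as they may for *Derl1* (4.16%) and *Dnajb9* (2.72%).

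The degradation factors return misfolded proteins to the cytosol. *Derl1*, a membrane component of this route, was the highest by mean level, at 33.7, 40.2 and 39.0 FPKM in the untreated libraries and 45.3, 43.3 and 37.6 FPKM in the treated ones. The libraries overlapped, with C3G replicates 1 and 2 above the control range and C3G replicate 3 within it, and the difference was 0.16 (SE 0.16, 95% interval -0.22 to 0.53, limma p = 0.355, exact permutation p = 0.3), or 0.081 without control replicate 1. *Derl2*, a related protein, showed 0.39 (exact permutation p = 0.9) with 1.45 FPKM in control replicate 1 and 4.75 to 6.11 FPKM in the other 5 libraries. *Sel1l* and *Syvn1*, the adaptor and ubiquitin ligase of the main degradation complex, were 0.22 and 0.10. *Edem1*, which recognises trimmed sugar chains, was 0.12 and *Herpud1*, a stress-induced scaffold of the complex, was -0.028. The exact permutation p values of the 6 were 0.3 or more. *Derl2* (-0.11) and *Edem1* (-0.073) changed direction without control replicate 1, and the rest of the 6 did not.

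The sensors and the factor they act on were at modest levels. *Xbp1*, whose messenger IRE1 splices, measured 23.6, 20.8 and 20.5 FPKM in the untreated libraries and 30.4, 22.0 and 20.8 FPKM in the treated ones. C3G replicate 1 was the highest, and the others lay between 20.5 and 23.6 FPKM. The difference was 0.15 (SE 0.19, 95% interval -0.30 to 0.60, limma p = 0.453, exact permutation p = 0.5). These gene-level values do not separate the spliced from the unspliced *Xbp1* messenger. *Atf6*, the sensor cut to release a transcription factor, measured 3.63, 9.42 and 8.13 FPKM in the untreated libraries and 6.45, 9.54 and 8.73 FPKM in the treated ones. Control replicate 1 was lowest and C3G replicate 1 next, with a difference of 0.27 (SE 0.33, 95% interval -0.52 to 1.06, limma p = 0.451, exact permutation p = 0.6), or -0.093 without control replicate 1. *Ern1* (IRE1), the lowest member, measured 4.13, 5.30 and 4.24 FPKM in the untreated libraries and 4.42, 4.89 and 5.30 FPKM in the treated ones. Its groups overlapped, and the difference was 0.083 (SE 0.16, 95% interval -0.31 to 0.47, limma p = 0.630, exact permutation p = 0.5), or 0.029 without control replicate 1.

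The same-numbered control and C3G libraries moved together, so each C3G library was also set against the control of its number. The members' median absolute difference was 0.61 in pair 1, 0.051 in pair 2 and 0.061 in pair 3, against 0.42, 0.076 and 0.079 over the 7083 genes with a mean at least that of the lowest member. The larger differences of pair 1 were thus shared by genes at these levels in general. In pair 1, 18 of the 35 members differed by over 0.5, beside 41.9% of these 7083 genes. In pairs 2 and 3, 1 member did, *Hspa5* in each, beside 2.27% and 2.19% of the genes. At a limit of 0.1, 25 of 35 members in pair 2 and 26 of 35 in pair 3 were nearly equal between C3G and control, beside 61.7% and 60.3% of the genes. *Hspa5* differed by 1.48, -0.82 and 0.90 in the 3 pairs, higher in pairs 1 and 3 and lower in pair 2. Across numbers, *Hspa5* in control replicate 2 (111 FPKM) lay near C3G replicate 3 (125 FPKM). Its control replicate 3 (66.6 FPKM) lay near C3G replicate 2 (62.7 FPKM). Among the 7083 genes, *Hspa5* ranked 57 by absolute difference in pair 2 and 43 in pair 3. All 3 pairs pointed the same way for 12 members, 11 higher and 1 (*Creld2*) lower, against 25.9% of all genes. For *Txndc5* the pairs gave -1.28, 0.040 and 0.0069, so the lower mean came from pair 1.

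**Figure D3:**
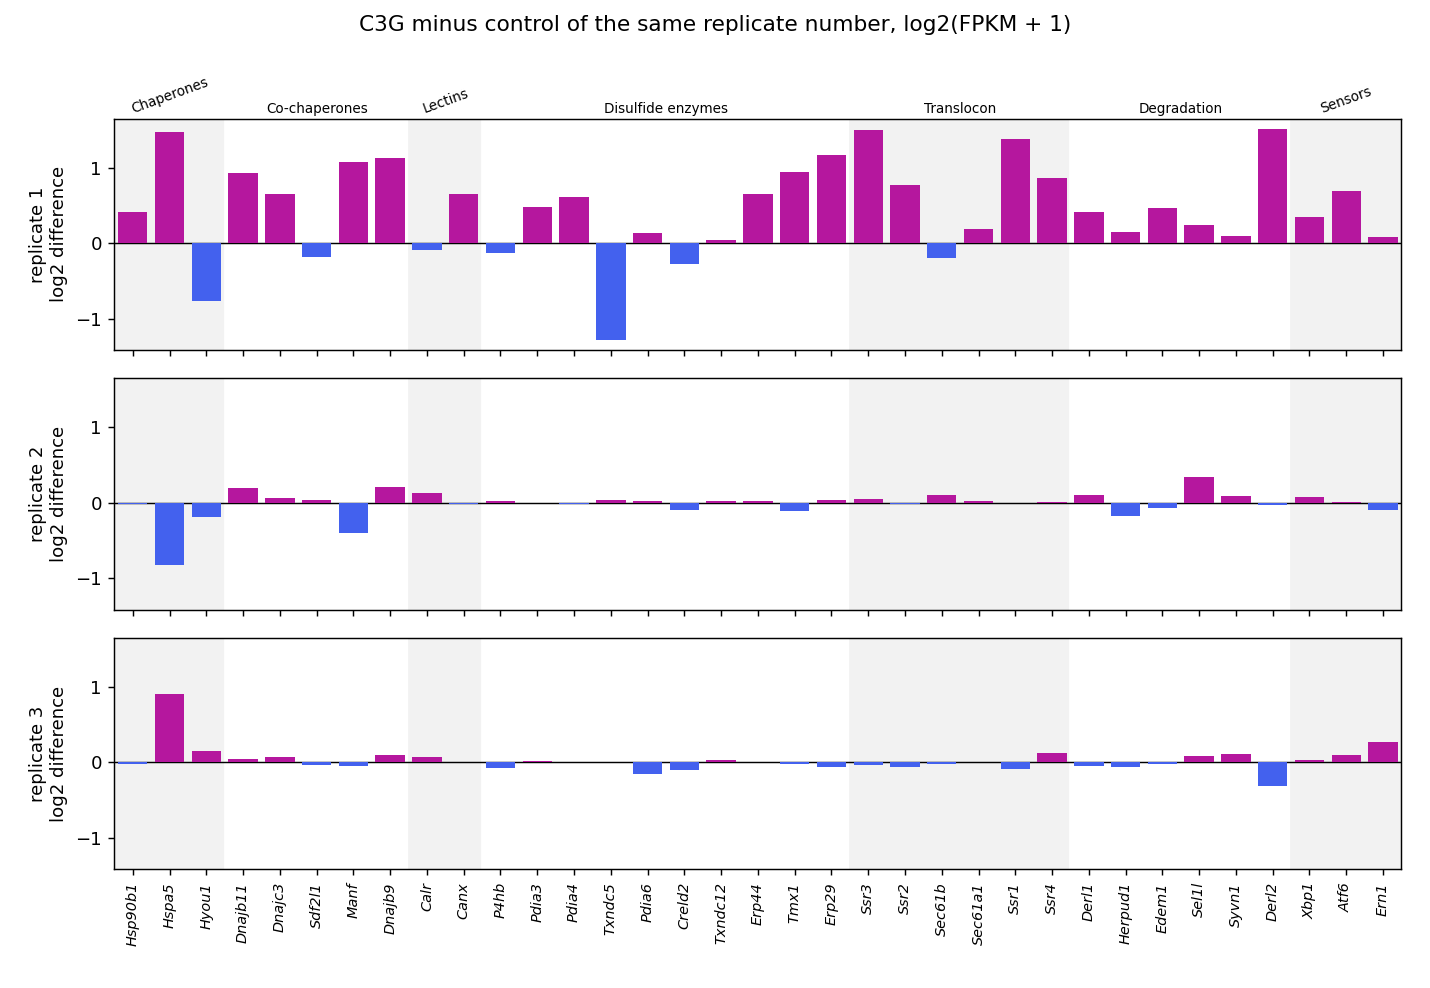
C3G minus control of the same replicate number on the log2(FPKM + 1) scale for each gene in pairs 1 to 3 (upper to lower panels), with magenta for higher and blue for lower with C3G, bars starting at 0. Pair 1 holds most of the large differences, and *Hspa5* is the only member over 0.5 in pairs 2 and 3.

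The GC content of the transcript moved with the departure of replicate 1 from the other replicates in both groups. Across the 35 members, control replicate 1 minus the mean of control replicates 2 and 3 had a Spearman correlation of 0.789 with GC content of the longest transcript, against 0.748 across 11211 genes, all of which share this 1 library. For C3G replicate 1 minus the mean of C3G replicates 2 and 3, the correlation was 0.608 across the members and 0.631 across all genes. The difference between C3G and control had a correlation of -0.676 across the members and -0.541 across all genes. That difference also holds control replicate 1, so its correlation is not independent of the first. The 9 members with GC content under 45% (*Hsp90b1*, *Canx*, *Erp44*, *Dnajb9*, *Dnajc3*, *Ssr1*, *Ssr3*, *Derl2* and *Tmx1*) were all lower in control replicate 1, by a median of -1.41. Of the 16 members at 50% or more, 6 were lower, and the median was 0.24. Its part in the differences above was not tested, and a correction for GC content gave a median member difference of 0.08 with 0 members called.

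**Figure D4:**
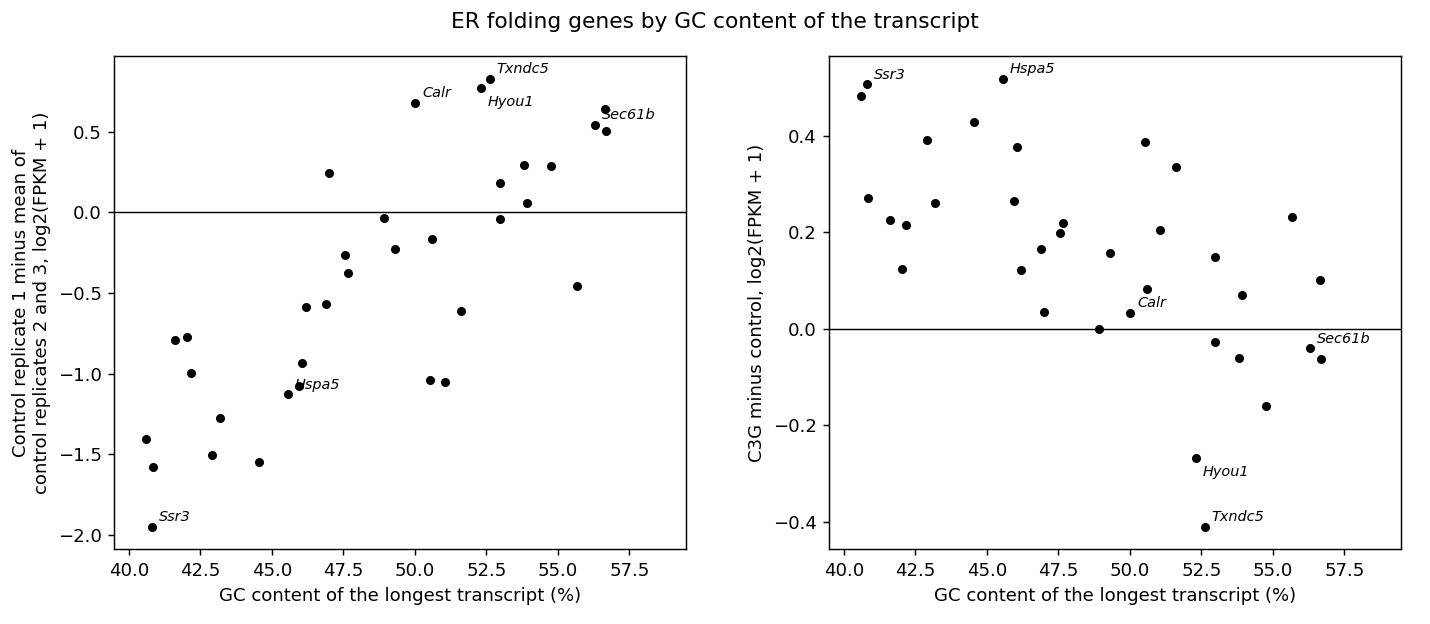
GC content of the longest transcript (%) against the departure of control replicate 1 from control replicates 2 and 3 (left) and against the difference between C3G and control (right), both on the log2(FPKM + 1) scale, for the 35 genes. The left panel rises and the right panel falls with GC content, with *Txndc5* and *Hyou1* below the rest of the right panel. Control replicate 1 enters both panels, so they are not independent.

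The 8 genes with an ER stress element in their promoter had a median difference between C3G and control of 0.11 (7 of 8 higher), from -0.16 for *Creld2* to 0.52 for *Hspa5*, against 0.18 (15 of 20 higher) for the 20 genes with a promoter and no match to that element, which include *Herpud1*, *Dnajb11* and *Txndc5* with their other elements. No test was made between these groups. *Hsp90b1* (-0.13), *Canx* (-0.12), *Pdia6* (-0.010) and *Dnajc3* (-0.16) turned lower without control replicate 1, and *Creld2* (-0.064) stayed lower. *Hspa5* (0.14), *Calr* (0.26) and *Syvn1* (0.31) stayed higher. Among the 20 genes, *Ssr3*, the highest at 0.51, became -0.14.

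Further genes of the same pathway were looked at from a separate list of 61, of which 60 were listed. That list was written with earlier results of these data known. These 60 were 42 higher and 18 lower with C3G, with a median difference of 0.07. That count is not given without control replicate 1, which departed widely from the mean of control replicates 2 and 3 in some of them. It was lower in *Stt3a* (-1.98) and *Tmx3* (-2.22) and higher in *Prkcsh* and *Atf6b* (1.09 each). Of the 60, 1 was called, beside 0.650% of all genes. That gene was *Ppp1r15a* (GADD34), which directs a phosphatase to the PERK target eIF2α, at 15.1, 8.69 and 8.89 FPKM in the untreated libraries and 5.98, 6.65 and 5.67 FPKM in the treated ones. All 3 C3G libraries lay below all 3 controls. The difference was -0.70 (SE 0.23, 95% interval -1.26 to -0.15, limma p = 0.0204, exact permutation p = 0.1), with an adjusted p of 0.992 (limma, Benjamini-Hochberg). *Ppp1r15a* was no longer called without C3G replicate 1 (difference -0.69) or without C3G replicate 3 (-0.66), and its difference without control replicate 1 was -0.47. The groups also did not overlap in *Ostc*, *Ganab* and *Erlec1*, none of which was called, so 4 of 60 did not overlap, beside 4.02% of all genes. The stress-induced *Ddit3*, *Atf4*, *Trib3* and *Chac1* and the PERK gene *Eif2ak3* had differences of -0.17, 0.23, -0.15, 0.035 and 0.087, with exact permutation p values of 0.4 or more. In these genes control replicate 1 departed from the mean of control replicates 2 and 3 by 0.48, -0.53, 0.72, 0.20 and 0.029.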

How the data were processed

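RNA-seq of 6 MC3T3-E1 libraries (3 control, 3 C3G) was deposited by the authors as FPKM values per gene. Per the paper's methods, stranded libraries were sequenced on Illumina instruments and FPKM were calculated with Ballgown. The submitters' processing notes name cutadapt, HISAT2 2.1.0, StringTie, STAR 2.5.2b and the human build hg19, with no role given, although the identifiers are mouse, so the build behind the values is uncertain. Depth is unknown.

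Versions were stripped from the 11234 Ensembl identifiers, and 11211 matched GENCODE M21 (GRCm38), the source of symbols, positions and GC content. A linear model was fitted to log2(FPKM + 1) with limma 3.58.1 (R 4.3.3; group only, trend) over all genes and libraries, with Benjamini-Hochberg adjustment. The fit was tested on simulated data. Single genes also had a two-sided exact permutation test, which, like the main fit, took no account of replicate numbers. Same-numbered libraries deviated together (correlations 0.653, 0.580 and 0.440 for numbers 1, 2 and 3), and a replicate block was an alternative. Control replicate 2 with C3G replicate 3 gave 0.307, and control replicate 3 with C3G replicate 2 gave 0.300. The labels do not say whether the numbers pair the samples. A further 16 alternatives changed normalization, filters, GC correction, moderation or libraries. Full values are given for members with p under 0.1 or no overlap, *Hspa5*, *Txndc5*, the sensors and the highest member of each role, and further ER genes were to be named where called or with p under 0.1, which gave *Ppp1r15a*. *Hyou1*, *Canx*, *Ssr4*, *Dnajb9* and the other further ER genes were added after their values were seen. The members and lists were chosen with earlier results of these data known. Promoters came from RefSeq; protein sequences were not analysed here.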

Additional observations from a re-analysis of the deposited data

How the results depend on the processing

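No member was called under any of the 17 alternatives, and the smallest unadjusted limma p of a member under them was 0.056 (without control replicate 2). The median member difference of 0.17 became 0.08 with the GC correction, 0.10 with median centring and 0.01 with replicates 2 and 3 only, and it ranged from 0.01 to 0.30 over the fits that left out 1 library. The cause was not tested.

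The replicate block, which sets each C3G library against the control of its number, changed no member's call. Over all genes the 73 calls became 169 (1.50%) with the block, 135 with the GC correction, 246 with both, 48 with the ordinary linear model, 191 with replicates 2 and 3 only and 40 to 144 with 1 library left out. The split of calls was 45 higher and 28 lower, and 30 and 30 with quantile normalization or 67 and 68 with the GC correction. Among the 60 further ER genes, 1 was called, and 0 to 2 with 1 library left out. *Ppp1r15a* was not called without C3G replicate 1 or without C3G replicate 3, and its difference ranged from -0.83 to -0.47 over these fits.

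Several members changed direction. With the GC correction, alone or with the block, these were *Hsp90b1* -0.063, *Calr* -0.026, *Pdia6* -0.078, *Txndc12* -0.072, *Sdf2l1* 0.0024, *Sec61b* 0.015. With median centring they were *Calr* -0.032, *Pdia6* -0.065, *Txndc12* -0.030. With replicates 2 and 3 only they were *Hsp90b1* -0.020, *Canx* -0.0052, *Pdia4* -0.0084, *Pdia6* -0.068, *Txndc5* 0.023, *Erp29* -0.015, *Sdf2l1* 0.00015, *Manf* -0.23, *Edem1* -0.049, *Sec61b* 0.036, *Ssr1* -0.045, *Ssr2* -0.036, *Derl2* -0.17, *Tmx1* -0.065. Leaving out 1 library at a time changed the direction of 22 members, with the ranges *Hsp90b1* (-0.13 to 0.30), *Calr* (-0.19 to 0.26), *Canx* (-0.12 to 0.40), *Pdia3* (-0.022 to 0.29), *Pdia6* (-0.058 to 0.054), *P4hb* (-0.15 to 0.037), *Txndc12* (-0.051 to 0.12), *Erp44* (-0.039 to 0.38), *Dnajc3* (-0.16 to 0.49), *Sdf2l1* (-0.19 to 0.11), *Manf* (-0.15 to 0.40), *Herpud1* (-0.10 to 0.017), *Syvn1* (-0.11 to 0.31), *Edem1* (-0.073 to 0.23), *Xbp1* (-0.012 to 0.25), *Atf6* (-0.093 to 0.49), *Sec61a1* (-0.0054 to 0.12), *Sec61b* (-0.14 to 0.14), *Ssr1* (-0.088 to 0.70), *Ssr3* (-0.14 to 0.83), *Derl2* (-0.11 to 0.66), *Tmx1* (-0.25 to 0.55). FPKM values hold no depth, so precision rests on the 3 libraries of each group.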

Other observations

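The messengers of type I collagen, a secreted product of osteoblasts, were highest in 1 control library. *Col1a1* was at 4432, 942 and 1221 FPKM in the untreated libraries and 1478, 923 and 1246 FPKM in the treated ones. *Col1a2*, the partner chain, was at 1995, 593 and 742 FPKM in the untreated libraries and 852, 593 and 735 FPKM in the treated ones. In both, control replicate 1 was well above the other 5 libraries, which overlapped between groups. *Serpinh1*, the collagen-specific chaperone of the ER, was at 448, 405 and 273 FPKM in the untreated libraries and 325, 252 and 274 FPKM in the treated ones, and *Ppib*, a prolyl isomerase of the collagen folding complex, at 66.5, 43.8 and 47.5 FPKM in the untreated libraries and 63.6, 48.8 and 46.5 FPKM in the treated ones. These genes were chosen after their values were seen.

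Of 7083 genes at the members' levels, 43 differed by over 0.5 in both pairs 2 and 3, and 22 of these, *Hspa5* among them, did so in opposite directions. Another was *Gapdh*, a glycolytic enzyme and the study's internal control for PCR, at 65.8, 120.0 and 171 FPKM in the untreated libraries and 192, 207 and 102 FPKM in the treated ones. *Gapdh* differed by 1.53, 0.78 and -0.75 in pairs 1, 2 and 3 and *Hspa5* by 1.48, -0.82 and 0.90, so the genes shared a direction in pair 1 and were opposite in pairs 2 and 3. *Ly6a*, a surface antigen, was at 13.7, 23.5 and 33.7 FPKM in the untreated libraries and 22.7, 34.1 and 20.8 FPKM in the treated ones. In *Hspa5*, *Gapdh* and *Ly6a*, control replicate 2 lay nearer to C3G replicate 3, and control replicate 3 nearer to C3G replicate 2. For *Hspa5* these were 111 and 125 FPKM, and 66.6 and 62.7 FPKM. These genes were also chosen after their values were seen, and the cause was not tested.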
